A study of Mus musculus with 7 samples.

Results

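Homing receptors are the surface molecules by which hematopoietic stem cells (HSCs) find and hold their niche in the bone marrow (BM), and 10 such genes were examined in LSK cells that lacked or carried PROSER1. The members were taken by symbol as the rows of the deposited expression table for Cxcr4, Itga4, Itgb1, Itga5, Itga6, Itgal, Itgb2, Itgb7, Cd44 and Selplg. All 10 of them were found, out of 48440 genes in the table, and the rule that selects them uses no measured value. LSK cells (Lin-Sca1+cKit+) are BM cells without lineage markers that hold the HSCs and multipotent progenitors. They were sorted from mice that had been lethally irradiated with 9.5 Gy and reconstituted for 77 days with BM of wild-type donors (4 libraries) or of donors with a constitutive, endonuclease-mediated PROSER1 KO (3 libraries). Irradiation and transplantation were thus shared by both groups, and the sort described in the labels used no marker that separates donor from residual host cells. The donors' ages are not given in the labels, and the labels call the libraries biological replicates without saying whether each came from a single recipient. Libraries are named WT1 to WT4 and KO1 to KO3 by their replicate numbers.

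Transplanted HSCs leave the blood through a series of steps. Selectin ligands such as PSGL-1 and CD44 let them roll on marrow endothelium, the chemokine CXCL12 acts through its receptor CXCR4, and integrins, which are heterodimers of an alpha and a beta chain, then hold the cells firmly to VCAM-1, fibronectin, laminin or ICAM-1. The same receptors retain HSCs in the marrow, and blocking CXCR4 or the integrin VLA-4 releases them into the blood.

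Each library held between 33143619 and 45140743 read pairs on genes. Kit and Ly6a, which encode the markers of the sort (cKit and Sca1), together had normalized counts of 30232 to 36363 in every library. Of 10 neutrophil and monocyte markers, Ly6g had a mean under 10, while others were present, such as S100a8 (160 to 1047) and Ltf (110 to 1077). RNA of plasma cells was present as well, since immunoglobulin genes held 5.55% to 13.0% of the read pairs of the wild-type libraries and 6.28% to 9.40% of the KO libraries. Xist (1012 to 3003 normalized counts) and the Y-linked Ddx3y (3890 to 4421) were both found in every library, although the labels give no sex. Proser1 mRNA itself was not lower in the KO libraries (2338 to 2464 normalized counts) than in the wild-type libraries (2019.4 to 2153), so that the direction of each difference rests on the labels of the libraries.

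RefSeq (GRCm38.p6) promoter sequences were available for 6 of the 10 genes. Of these, 5 are shown here, chosen for the place of their genes in the results below. No result rests on a promoter sequence. Cxcr4 is the chemokine receptor of the group, Itga5 was the member whose groups did not overlap, Itga4 and Itgb7 encode chains of the same dimer and shared their highest and lowest library, and Itgb1 was highest in the library where those genes were lowest. Each run is the 250 bases before the RefSeq start site, read 5′ to 3′ on the strand of the gene. Capitals mark matches on either strand to GAGGAA (an ETS core of the type bound by PU.1), GGGCGG (the GC box) and TATAAA (the TATA box), none of which overlapped a different motif.
Cxcr4 (chr1:128592300-128592549, minus strand): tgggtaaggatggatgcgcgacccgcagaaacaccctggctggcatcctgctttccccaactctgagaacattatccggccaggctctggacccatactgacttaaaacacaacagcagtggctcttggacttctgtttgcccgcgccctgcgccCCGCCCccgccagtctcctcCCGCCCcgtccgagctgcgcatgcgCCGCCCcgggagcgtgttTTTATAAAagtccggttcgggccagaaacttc
Itga5 (chr15:103366792-103367041, minus strand): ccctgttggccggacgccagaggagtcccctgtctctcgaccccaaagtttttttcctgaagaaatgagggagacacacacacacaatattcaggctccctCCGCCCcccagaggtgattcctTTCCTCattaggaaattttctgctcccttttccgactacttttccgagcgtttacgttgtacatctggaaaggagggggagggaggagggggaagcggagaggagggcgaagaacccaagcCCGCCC
Itga4 (chr2:79255176-79255425, plus strand): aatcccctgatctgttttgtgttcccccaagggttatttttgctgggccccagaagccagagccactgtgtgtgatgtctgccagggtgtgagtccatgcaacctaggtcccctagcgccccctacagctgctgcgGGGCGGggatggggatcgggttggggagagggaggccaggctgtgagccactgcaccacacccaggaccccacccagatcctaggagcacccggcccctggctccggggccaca
Itgb7 (chr15:102231936-102232185, minus strand): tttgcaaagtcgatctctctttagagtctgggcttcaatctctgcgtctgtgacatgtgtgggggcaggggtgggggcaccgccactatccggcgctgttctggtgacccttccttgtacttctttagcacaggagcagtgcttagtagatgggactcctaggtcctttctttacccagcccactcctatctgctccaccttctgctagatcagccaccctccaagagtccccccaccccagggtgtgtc
Itgb1 (chr8:128685404-128685653, plus strand): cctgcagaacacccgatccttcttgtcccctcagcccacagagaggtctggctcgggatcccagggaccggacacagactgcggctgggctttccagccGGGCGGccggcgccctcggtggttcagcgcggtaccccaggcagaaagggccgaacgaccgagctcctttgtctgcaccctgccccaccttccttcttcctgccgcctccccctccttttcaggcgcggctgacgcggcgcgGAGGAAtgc

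The Cxcr4 window held 3 GC boxes and a TATA box that reads in both directions (2 matches). The Itga5 window held 1 GAGGAA match and 2 GC boxes, and the Itgb1 window held 1 match of each of these motifs. The Itga4 window held 1 GC box, while the Itgb7 window held 0 matches to the 3 motifs. The Cd44 window, not shown, held 2 GAGGAA matches and 0 matches to the other motifs. Over all 32851 promoters of the RefSeq table, 23.3% held GAGGAA, 32.7% held GGGCGG and 12.4% held TATAAA in a window of this length. These are matches of letters only.

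None of the 10 homing receptor genes was differentially expressed between the libraries labelled PROSER1 KO and the wild-type libraries. With limma on log2(normalized count + 1), with calls at a fold change above 1.5 and a p-value under 0.05 after Benjamini-Hochberg adjustment, 0 of 10 members were called, against 0.258% of the 16251 genes tested. The lowest adjusted p-value among them was 0.498 (Itga5). Without adjustment, 1 member (Itga5) had a p-value under 0.05, against 9.73% over the whole table. In 1 of 10 members, again Itga5, the groups did not overlap, and this was also the case for 10% of the genes tested. On recovered read pairs, edgeR called 0 members with 1 at an unadjusted p-value under 0.05, and DESeq2 called 0 with 0. The median log2 fold change over the members was 0.06, with 8 above and 2 below 0, beside a median of 0.00 over all tested genes. In bulk RNA, fewer cells of a type and less RNA per cell cannot be told apart.

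The precision of the libraries bounds what could have been missed. The 95% intervals of the log2 fold change, from the limma fit and not adjusted for the number of genes, lay for all 10 members inside the 1.5-fold limits of 0.58 in either direction. They reached from -0.23 (Selplg, 0.852-fold) at the lowest to 0.34 (Itgb2, 1.26-fold) at the highest.

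**Figure D1:**
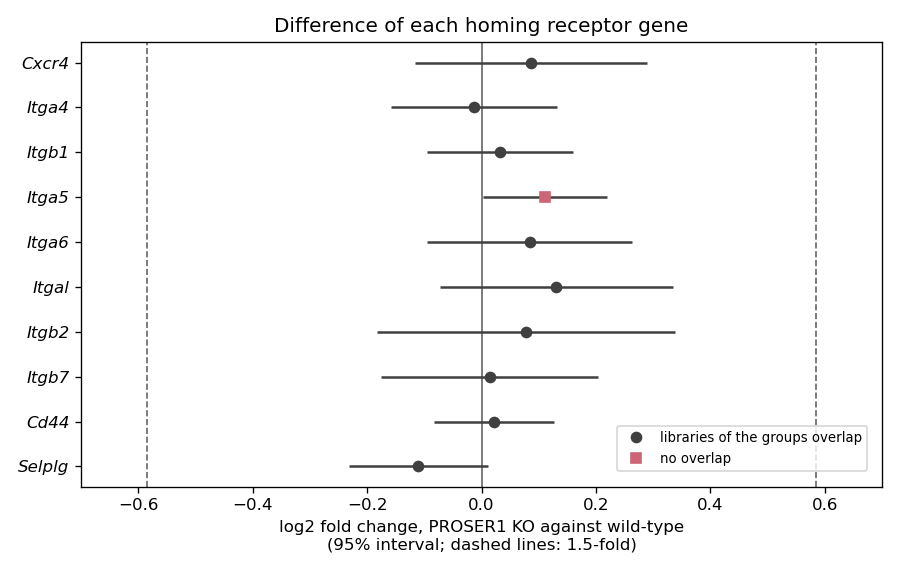
Log2 fold change of each homing receptor gene between 3 PROSER1 KO and 4 wild-type libraries (x axis), with its 95% interval from limma as a line and the 1.5-fold limits as dashed lines. All intervals lie between -0.23 and 0.34, and the square marks Itga5, the member whose libraries did not overlap between the groups.

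Cxcr4 (ENSMUSG00000045382, chromosome 1, 128588199 to 128592293, minus strand; GRCm38) encodes the receptor for CXCL12. Its normalized counts were 3232, 3651, 3606 and 3924 in WT1 to WT4 and 3357, 3842 and 4314 in KO1 to KO3. The groups overlapped, with WT1 and KO1 at the low end and KO3 above every other library. Wild-type averaged 3603 ± 285 (SD, n = 4) and KO 3837 ± 478 (SD, n = 3), with a log2 fold change of 0.09 (SE 0.090, 95% interval -0.12 to 0.29, limma adjusted p = 0.803; two-sided exact permutation p = 0.429). Single libraries moved this value: the log2 fold change was -0.0014 without KO3, 0.04 without WT1 and 0.18 without KO1. Of all tested genes, the 3 nearest to Cxcr4 in profile over the 7 libraries were Gm20559 (0.0345), Fam126b (0.0352) and Mga (0.0355). The measure was the root mean square difference of centred log2 values. Its median over all tested genes was 0.190, and a gene at the same level in every library would lie at 0.130. Mga, for instance, had 7854, 8399, 8507 and 8963 normalized counts in the wild-type libraries and 8213, 9044 and 9977 in the KO libraries, and it was likewise not differentially expressed (limma adjusted p = 0.678).

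**Figure D2:**
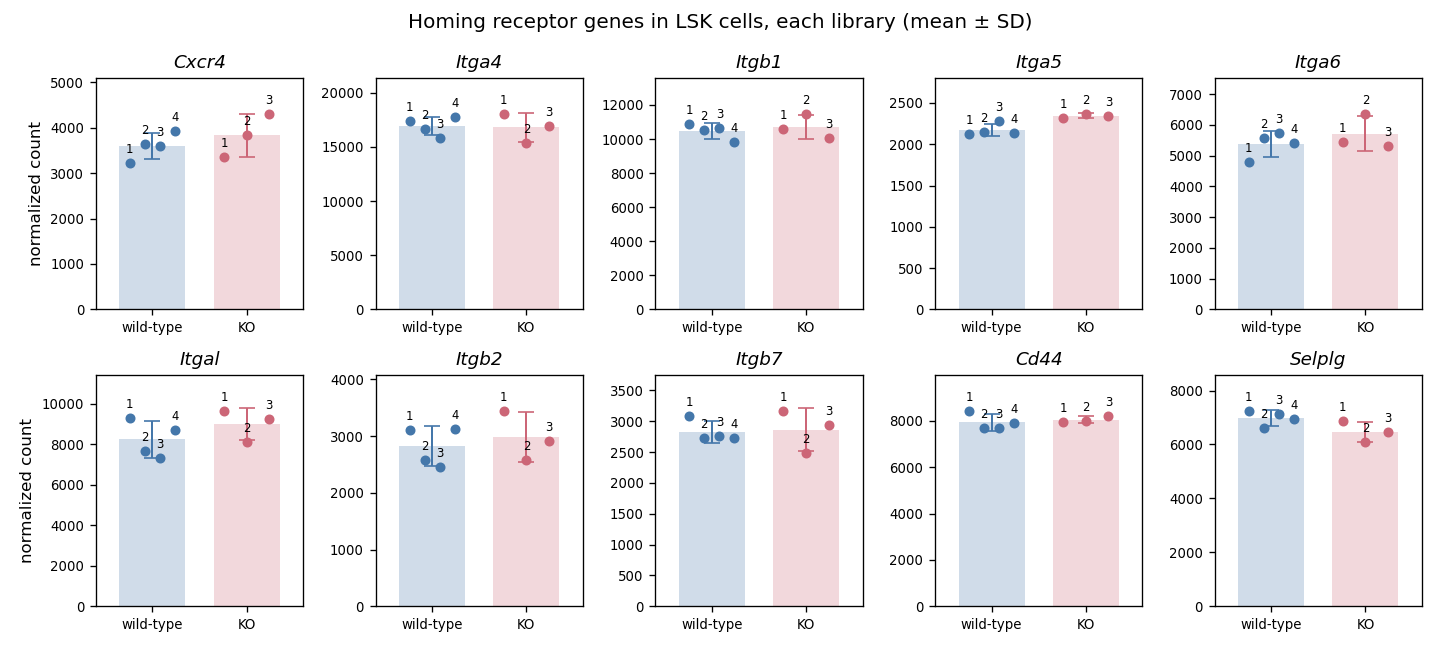
Normalized counts of the 10 homing receptor genes in each library (points, numbered by replicate), with the mean of each group as a bar and its SD as an error bar, n = 4 wild-type and n = 3 PROSER1 KO. Only in the Itga5 panel do all KO points (2315 to 2371) lie above all wild-type points (2130 to 2279), and Itgb2 spreads the most within each group (highest over lowest library 1.28 and 1.34).

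Itgb1 (ENSMUSG00000025809, chromosome 8, 128685654 to 128733200, plus strand) encodes the beta 1 chain, which pairs with alpha 4 in VLA-4, alpha 5 in VLA-5 and alpha 6 in VLA-6. Its normalized counts were 10881, 10556, 10628 and 9822 in the wild-type libraries and 10579, 11492 and 10088 in the KO libraries. KO2 was the highest and WT4 the lowest library, with the other libraries of both groups intermixed between them. The log2 fold change was 0.03 (95% interval -0.10 to 0.16, limma adjusted p = 0.904).

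Of the alpha chains that use it, Itga4 (ENSMUSG00000027009, chromosome 2, 79255426 to 79333123, plus strand) encodes alpha 4, the chain that binds VCAM-1 and fibronectin as VLA-4. It had 17428, 16664, 15837 and 17794 normalized counts in WT1 to WT4 and 18071, 15363 and 16939 in KO1 to KO3. KO1 was thus the highest and KO2 the lowest of the 7 libraries, so that the KO group enclosed the wild-type group. Wild-type averaged 16931 ± 868 (SD, n = 4) and KO 16791 ± 1360 (SD, n = 3), and the log2 fold change was -0.01 (95% interval -0.16 to 0.13, limma adjusted p = 0.969). Cerkl, on the opposite strand, shares 1124 bp with the merged exons of Itga4 (8.04% of their length). The sources used here do not say whether counting used the strand, and Cerkl had a mean of 335 normalized counts.

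Itga5 (ENSMUSG00000000555, chromosome 15, 103344286 to 103366763, minus strand) encodes alpha 5, the chain of the fibronectin receptor VLA-5. Its normalized counts were 2130, 2146, 2279 and 2132 in the wild-type libraries and 2315, 2371 and 2347 in the KO libraries. Every KO library lay above every wild-type library, and WT3 stood nearest to the KO libraries. Wild-type averaged 2172 ± 72.0 (SD, n = 4) and KO 2344 ± 28.2 (SD, n = 3), and the fitted KO level was 7.98% above wild-type with a 95% interval of 0.173% to 16.4%. On the log2 scale this was 0.11 (SE 0.048, unadjusted p = 0.0459, limma adjusted p = 0.498). The two-sided exact permutation p-value was 0.0571, where 0.0286 is the smallest that the 35 splits of 4 and 3 libraries allow. The difference therefore did not pass the correction, and it stayed between 0.10 and 0.13 on the log2 scale when each library was left out in turn.

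Itga6 (ENSMUSG00000027111, chromosome 2, 71745616 to 71858416, plus strand) encodes alpha 6, a laminin receptor chain. It had 4786, 5587, 5734 and 5429 normalized counts in the wild-type libraries and 5453, 6369 and 5314 in the KO libraries. KO2 was the highest and WT1 the lowest library, and the other KO libraries fell within the wild-type range. The log2 fold change was 0.08 (95% interval -0.10 to 0.26, limma adjusted p = 0.783), 0.03 without WT1 and 0.0031 without KO2.

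Itgb7 (ENSMUSG00000001281, chromosome 15, 102215995 to 102231944, minus strand) encodes beta 7, the other partner of alpha 4, which binds MAdCAM-1 on endothelium. It had 3083, 2731, 2754 and 2732 normalized counts in the wild-type libraries and 3171, 2485 and 2934 in the KO libraries. As for Itga4, KO1 was the highest and KO2 the lowest library. The log2 fold change was 0.01 (95% interval -0.18 to 0.20, limma adjusted p = 0.977).

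Itgal and Itgb2 encode the alpha L and beta 2 chains of LFA-1, the leukocyte receptor for ICAM-1. Itgal (ENSMUSG00000030830, chromosome 7, 127296260 to 127335138, plus strand) had 9285, 7666, 7321 and 8721 normalized counts in the wild-type libraries and 9665, 8129 and 9248 in the KO libraries. Itgb2 (ENSMUSG00000000290, chromosome 10, 77530252 to 77565708, plus strand) had 3113, 2581, 2451 and 3128 in the wild-type libraries and 3449, 2577 and 2909 in the KO libraries. For both genes KO1 was the highest library and WT3 the lowest, and WT1 and WT4 were also high. The log2 fold changes were 0.13 for Itgal (95% interval -0.07 to 0.33, limma adjusted p = 0.684) and 0.08 for Itgb2 (95% interval -0.18 to 0.34, limma adjusted p = 0.882). The value of Itgal depended on single libraries, from 0.08 (without WT3) to 0.20 (without KO2), and Itgb2 had the widest interval of the members.

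Cd44 (ENSMUSG00000005087, chromosome 2, 102811141 to 102901665, minus strand) encodes the hyaluronan receptor, which also carries selectin-binding glycans. It was the steadiest of the 10 genes, at 7671 to 8435 normalized counts in the wild-type libraries and 7943 to 8225 in the KO libraries. The SD of its log2 values over the 7 libraries (0.049) was lower than that of all but 4.87% of the tested genes. Its log2 fold change was 0.02 (95% interval -0.08 to 0.13, limma adjusted p = 0.926).

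Selplg (ENSMUSG00000048163, chromosome 5, 113818536 to 113832644, minus strand) encodes PSGL-1, the ligand for P-selectin. It had 7255, 6597, 7115 and 6960 normalized counts in the wild-type libraries and 6856, 6097 and 6461 in the KO libraries. KO2 and KO3 were the lowest libraries, while KO1 lay above WT2. Wild-type averaged 6982 ± 284 (SD, n = 4) and KO 6471 ± 380 (SD, n = 3), with a log2 fold change of -0.11 (SE 0.054, 95% interval -0.23 to 0.01, unadjusted p = 0.0702, limma adjusted p = 0.546; two-sided exact permutation p = 0.114). It was the lowest value among the members and did not pass the threshold.

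To set the genes beside each other, normalized counts were divided by the length of the merged exons in kilobases. On this scale Itgb1 was the highest with a mean of 2592 per kb over the 7 libraries, followed by Cxcr4 at 2048 and Selplg at 1583. The lowest chains were Itga6 at 612 and Itga5 at 455 per kb. Between them lay Itgal (1306), Itga4 (1207), Cd44 (1178), Itgb7 (1026) and Itgb2 (946), and neighbours in this middle stretch, and Selplg and Itgal, overlapped in their ranges over the libraries. Itgb1 lay above Cxcr4, Cxcr4 above Selplg, Itgb2 above Itga6 and Itga6 above Itga5 without overlap. The merged exons add up to 13978 bp for Itga4 and 4081 bp for Itgb1, and other choices of length were not tried.

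**Figure D3:**
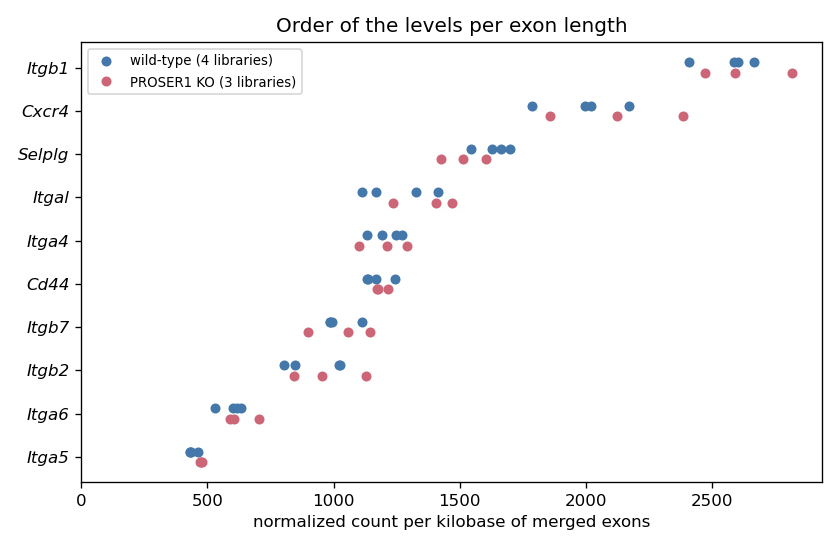
Normalized count per kilobase of merged exons (x axis) of the 10 genes in each of 4 wild-type and 3 PROSER1 KO libraries (points). Itgb1 lies highest, between 2407 and 2816, and Itga5 lowest, while the genes from Itgal to Itgb2 run into each other.

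The ratios of partner chains on this scale overlapped between the groups as well. Itga4 per Itgb1 was 0.473 ± 0.0397 (SD, n = 4) in the wild-type libraries and 0.460 ± 0.0603 (SD, n = 3) in the KO libraries, with the lowest value in KO2 (0.390) and the highest in WT4 (0.529). Itga5 per Itgb1 was 0.172 ± 0.0082 and 0.181 ± 0.0109, and Itgal per Itgb2 was 1.36 ± 0.0447 and 1.41 ± 0.0979. The ratio of Itga5 overlapped too although its own counts did not. Over the 7 libraries Itga4 per Itgb7 ran from 1.12 to 1.29, and Itgal per Itgb2 from 1.30 to 1.48.

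Apart from Itga5, the members did not separate the libraries by group. A KO library was the highest for 8 of 10. The matching share of all tested genes is the sum of 15.5% highest in KO1, 16.8% in KO2 and 14.3% in KO3. KO1 was the highest library for Itga4, Itgb7, Itgal and Itgb2 (4 of 10 members, against 15.5% of tested genes), and KO2 was the highest for Itgb1, Itga5 and Itga6 (3 of 10, against 16.8%). KO2 was in turn the lowest for Itga4, Itgb7 and Selplg (3 of 10, against 16.9%). The same 4 libraries, KO1, WT1, WT4 and KO3, were the highest for Itga4, Itgal and Itgb2. This set of 4 was taken from Itga4, which therefore matches by definition. Of all tested genes, 3.93% had the same 4. These members share the same 7 libraries, so that the counts describe the libraries and carry no test.

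**Figure D4:**
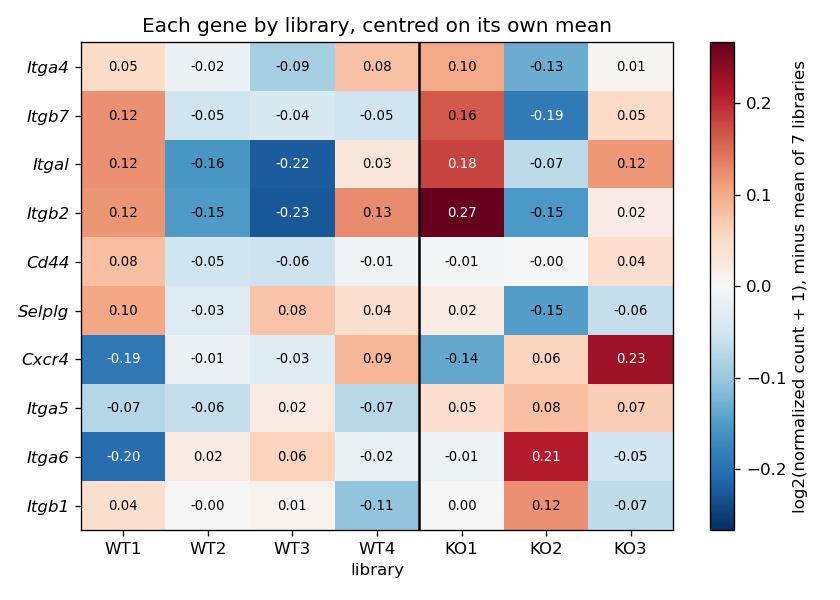
Log2(normalized count + 1) of each homing receptor gene in each library, minus its mean over the 7 libraries (colour and printed value), with wild-type libraries left of the line. Itga4, Itgb7, Itgal and Itgb2 are highest in KO1 (0.10 to 0.27), whereas Itga6 and Itgb1 peak in KO2 (0.21 and 0.12).

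The summed normalized counts of 8 B-lineage markers were 5745, 4689, 3409 and 6834 in WT1 to WT4 and 5423, 3478 and 5126 in KO1 to KO3, so that their 4 highest libraries were the same 4 as for Itga4, Itgal and Itgb2. The sum peaked in WT4 and the members in KO1, and Cd79a and Cd79b made up most of it. Vpreb1, Igll1 and Pax5 were instead lowest in WT4 (24.3, 6.96 and 55.6 normalized counts). None of the 8 markers was called (limma), the groups of 1 of them did not overlap (beside 10% of all tested genes), and none was at 0. Mature B cells and lymphoid progenitors are known to carry alpha 4 and LFA-1, and the part of this RNA in the levels of these members was not tested. Plasma cells are known to carry CXCR4 and alpha 4. The summed counts of 11 plasma cell markers were 1547930 to 3768340 in the wild-type libraries and 1732480 to 2674680 in the KO libraries, with 0 markers called and none at 0. WT4 and KO3 were the highest libraries for this sum and also for Cxcr4, whereas WT1 came next to KO3 in the sum (2610690 against 2674680) and was lowest for Cxcr4, and KO2 was low in the sum (1732480) and above WT1 to WT3 for Cxcr4. Its part in the level of Cxcr4 was not tested. The sum of 6 megakaryocyte markers was higher in all KO libraries (9238 to 12026) than in all wild-type libraries (7062 to 8906). Itga2b and Vwf made up most of this sum. All 6 markers were highest in KO1, but Gp9 (212) and Ppbp (15.4) were lowest in KO3. None of the 6 was called or without overlap by itself. The part of megakaryocyte RNA in the levels of Itga6 and Itgb1, which megakaryocytes also carry, was not tested. Its part in the level of Itga5, whose KO libraries also all lay above the wild-type libraries, was likewise not tested. Within the KO group this sum was highest in KO1 and Itga5 in KO2. The summed levels of the other marker lists (LSK gate, stem and multipotent progenitor, T and NK cell, neutrophil and monocyte, macrophage, erythroid, mast cell and basophil, stromal and endothelial) overlapped between the groups. In KO1, Cd3e, Cd3d and Cd3g had 197, 106 and 697 normalized counts. In the other libraries they had at most 24.0, 21.1 and 52.9. The T and NK cell sum was also highest in KO1 (3882), as was Cd8a (33.4). Trac, Cd4, Nkg7, Klrb1c and Ncr1 were instead highest in a wild-type library. The part of this RNA in the levels of the members that were highest in KO1 was not tested.

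The rest of the adhesion machinery was read from 7 lists of related genes, of which 100 were in the table and 96 were tested. None was called (0 higher and 0 lower), 15 had an unadjusted p-value under 0.05 (beside 9.73% of all tested genes) and the groups did not overlap in 12 (9 higher and 3 lower in the KO libraries, 12.5% beside 10% over the whole table). On the recovered read pairs, edgeR and DESeq2 each called 1 of them, Itgb6. The median log2 fold change was 0.02, with 58 above and 38 below 0.

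Among the other integrin chains, Itgb6 (beta 6, a partner of alpha V) lay nearest to the threshold. It had 16.3, 19.8, 16.1 and 22.0 normalized counts in the wild-type libraries and 83.5, 62.6 and 50.9 in the KO libraries. Its levels were low in both groups, and the KO libraries lay well above the wild-type libraries. The log2 fold change was 1.75 (SE 0.29, limma adjusted p = 0.0521). It passed the threshold with a pseudocount of 10, with robust variance estimates, with quantile normalization, with edgeR and with DESeq2, and not in the other fits. Itga9 (alpha 9, which pairs with beta 1) had 486 to 515 normalized counts in the wild-type libraries and 530 to 783 in the KO libraries (log2 fold change 0.39, limma adjusted p = 0.337). The highest mean normalized counts were those of Itga2b (alpha IIb of platelets and early progenitors; 4627 to 5684 and 5425 to 6803) and Itgav among the alpha chains, and Itgb3 and Itgb5 among the beta chains. In all 4 of these the groups overlapped, with log2 fold changes of 0.24 for Itga2b, 0.01 for Itgav, 0.25 for Itgb3 and 0.24 for Itgb5.

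Of the 18 integrin regulators and adaptors, 2 had an unadjusted limma p-value under 0.05, beside 9.73% of all tested genes. Vinculin (Vcl) had 2449 to 2698 normalized counts in the wild-type libraries and 2769 to 3046 in the KO libraries (log2 fold change 0.15, limma adjusted p = 0.425). Tln1 and Fermt3, which encode talin and kindlin-3 and switch integrins to their active form, were the most abundant of the list, with log2 fold changes of -0.01 and 0.02.

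In the list around Cxcr4, the groups did not overlap in 4 of 19 genes, beside 10% over the whole table. Dpp4, which encodes the CD26 peptidase that inactivates CXCL12, had 2304 to 2607 normalized counts in the wild-type libraries and 2785 to 3740 in the KO libraries (log2 fold change 0.34, unadjusted p = 0.0063, limma adjusted p = 0.274). S1pr1, the receptor that draws cells toward the blood, had 547 to 594 and 598 to 663 (log2 fold change 0.15, limma adjusted p = 0.579). The abundant signalling genes Gnai2 (the inhibitory G protein) and Grk2 (a kinase that silences the receptor) had log2 fold changes of -0.01 and 0.02. Cxcl12 itself, named after its values had been seen, ran from 3.61 to 209 normalized counts in the wild-type libraries and from 53.3 to 357 in the KO libraries. As CXCL12 is a product of marrow stroma, its counts were set beside those of the stromal and endothelial markers. Their sum (Cxcl12 included) was 2345 to 3572 and 3458 to 4062. Most of it came from Pdgfrb (1855 to 2890 and 2759 to 2901), while Lepr and Pdgfra had means of 19.2 and 6.33. The sum therefore mainly follows Pdgfrb. Cdh5, Kdr and Lepr were, as was Cxcl12, lowest in WT2 (33.4, 96.5 and 3.61) and highest in KO3 (258, 392 and 39.4). Pdgfra was also highest in KO3 but lowest in KO2, and Col1a1, Col1a2 and Pdgfrb were lowest and highest in other libraries. The source of the Cxcl12 RNA was not tested.

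Around the selectin ligands, B4galt1, a galactosyltransferase, had 3399 to 3761 normalized counts in the wild-type libraries and 3888 to 4131 in the KO libraries (log2 fold change 0.15, limma adjusted p = 0.369). The sialomucins Cd34 and Spn were the most abundant genes of the list, at log2 fold changes of -0.01 and 0.03. Among the ligands of the integrins, fibronectin (Fn1) was low in both groups, with 47.1 to 97.4 and 98.2 to 132 normalized counts (log2 fold change 0.65, limma adjusted p = 0.455). Icam1 and Icam2, which bind LFA-1, had log2 fold changes of 0.11 and 0.03 with overlapping groups.

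Among junctional and tetraspanin partners, Cd82, a tetraspanin known from quiescent HSCs, had 2933, 2409, 2611 and 2516 normalized counts in the wild-type libraries and 2215, 2127 and 2206 in the KO libraries. All KO libraries lay below all wild-type libraries (log2 fold change -0.26, unadjusted p = 0.0042, limma adjusted p = 0.229). F11r, which encodes the junctional molecule JAM-A, lay in the other direction with 906 to 1078 and 1080 to 1217 (log2 fold change 0.22, limma adjusted p = 0.396). Cd47 and Cd37 were the most abundant of this list, with log2 fold changes of 0.05 and -0.11 and overlapping groups.

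**Figure D5:**
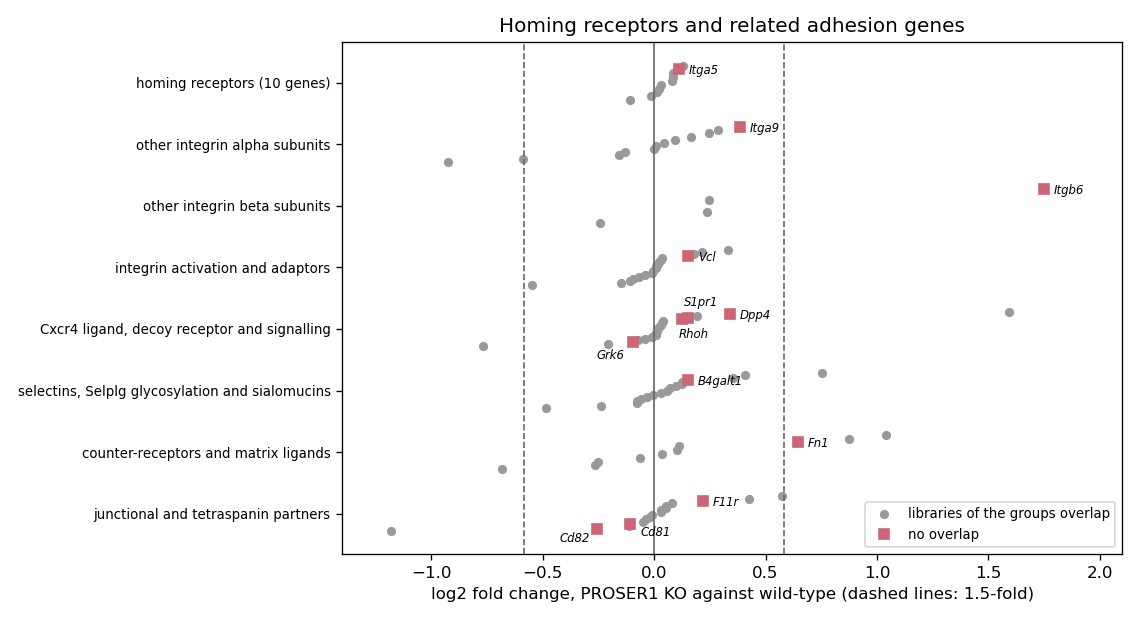
Log2 fold change between PROSER1 KO and wild-type libraries (x axis) of the 10 homing receptors and of the tested genes of 7 related lists (rows), with 1.5-fold limits as dashed lines. The homing receptors lie between -0.11 and 0.13, and squares mark genes whose libraries did not overlap, of which Itgb6 lies farthest out at 1.75.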

How the data were processed

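LSK RNA of 4 wild-type and 3 PROSER1 KO libraries was sequenced as read pairs. The authors used Trimmomatic for trimming, STAR for alignment (mm10), featureCounts for read pairs per gene and DESeq2 for size factors, so that the deposited values are a normalized signal (normalized counts), not raw counts. Whole read pairs were recovered (100% whole within 0.01). The methods name GENCODE M25, the table header M10, and positions and exon lengths here come from M21 (GRCm38).

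The group comparison used limma 3.58.1 (R 4.3.3) with a mean-variance trend. Values entered as log2(normalized count + 1) for the 16251 genes whose mean reached 10, where fold changes of low genes are understated. Intervals are 95% intervals of limma. Other settings tried were a minimum mean of 50 or none, pseudocounts of 0.1 and 10, no trend, robust variance estimates, quantile and TMM normalization, no fold minimum, edgeR 4.0.16, DESeq2 1.42.0, the replicate number as a block and each library left out. The procedures were tested on simulated data. Library depths give 3 read pairs as the limit for a count of 0, which covers counting error only. The members, lists and tests were chosen with earlier results of these data known. Named genes were all members and, per related list, called genes, the 2 largest non-overlapping differences and the 2 highest means, plus the 3 genes nearest to Cxcr4 in profile. Same-numbered libraries did not deviate together (r between -0.106 and 0.0575), so that numbers were not taken as pairs. Libraries of a group differed by more than sampling noise.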

Additional observations from a re-analysis of the deposited data

Results flagged for a closer look

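Among the wild-type libraries of the 10 members and 23 related genes (33 in all), the highest or lowest of 4 stood apart from the other 3 by more than Dixon's 95% limit in 2 members. For Itga5, WT3 reached 2279 normalized counts, while the remaining 3 lay at 2130 to 2146. For Itgb7, WT1 had 3083 and the other 3 had 2731 to 2754. Chance flags about 1 in 20 groups.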

How the results depend on the processing

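The count of called members was 0 in every alternative. Of 180 log2 fold changes of members under alternatives, 167 kept the direction and the side of the threshold. The other 13 changed sign without passing the threshold, 10 of them with a library left out. Changing the filter on low values, dropping the trend or using robust variance estimates cannot change a member's log2 fold change, so these fits could not change its sign. The replicate block gave the same log2 fold changes of the members as leaving out WT4, so these entered the count in duplicate. Itga4 (-0.01) came to 0.0065 with quantile normalization and 0.011 with the replicate block, which drops WT4 for want of a partner, and Itgb7 (0.01) to -0.0014 with this block. With the replicate block 35 genes, 0 members and 0 related genes were called, and the numbers do not pair the libraries by their deviations. With each library left out, the log2 fold change ran from -0.0014 to 0.18 for Cxcr4, from -0.0683 to 0.0488 for Itga4, from -0.0186 to 0.0755 for Itgb1, from -0.0330 to 0.18 for Itgb2 and from -0.0633 to 0.11 for Itgb7. The count of all called genes (42) was 17 without the trend, 80 with robust variance estimates and 165 with DESeq2, and ran from 23 (without KO2) to 42 with a library left out. Of the related genes, 1 (Itgb6) was called with a pseudocount of 10, robust variance estimates, quantile normalization, edgeR or DESeq2. The cause was not tested. Each member had at least 2130 normalized counts in each library.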
